A study of Oryza sativa with 4 samples.

Results

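NAC transcription factor genes were examined for chromatin accessibility in leaf blades of rice (Oryza sativa). NAC factors are a large plant-specific family named after the NAM, ATAF and CUC proteins. They bind DNA through a conserved N-terminal domain and regulate transcription through a variable C-terminal part. In cereals they are known for drought and salt responses, leaf senescence, secondary wall formation, organ boundaries and grain filling, and several of them are cut as messenger RNA by the microRNA miR164. Peaks were taken as NAC peaks where the symbol in the deposited annotation began with NAC and a digit, or where the description named a NAC domain or a NAC transcription factor. This gave 135 of 46114 listed peaks, at 75 of 27131 genes, on all 12 chromosomes. The symbol chose 116 peaks and the description 101, with 82 chosen by both. Of the genes, 36 had 1 peak, 24 had 2, 10 had 3, 4 had 4 and 1 had 5. Peaks of 1 gene share that gene and were not treated as replicates. Another 6 peaks at 4 genes with similar names fell outside the definition, and 0 of them passed the test used below. Of these genes, LOC_Os07g22450 is described as a nascent polypeptide-associated complex subunit and shares only the letters NAC.

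The assay was ATAC-seq, in which the transposase Tn5 cuts open chromatin, and a higher read count at a peak means more accessible DNA. There were 2 libraries from Oshmgb1 mutant seedlings and 2 from wild-type (WT) seedlings, all after 28 days of a condition labelled HP. OsHMGB1 belongs to the high mobility group proteins, chromatin proteins that bend DNA. The labels name neither the mutation, the cultivar nor the number of plants in a library. Since they do not say that libraries of 1 genotype came from separate plants, p-values reflect only how much these 4 libraries vary, which may be technical.

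Reads in listed peaks ranged from 7228483 to 10400677 per library. Values are read counts scaled to library size by TMM (CPM), and levels of different peaks are compared only as CPM per kb of peak. Each log2 fold change sets Oshmgb1 over WT and carries its standard error (SE), and a peak was called at an adjusted p under 0.05 in edgeR's quasi-likelihood test fitted over all 46114 peaks. With 2 libraries against 2, an exact permutation test of a single peak cannot go below 0.333. Chlorophyll-binding, photosystem and Rubisco genes, taken as mesophyll markers, had 60 peaks with a median of 53.5 CPM per kb, against 22.8 for 4 peaks of root genes and 18.3 for the 1 peak found at a pair of meristem genes. Epidermis genes had 4 peaks with a median of 32.7, and vascular genes 2 with 20.3. Promoters and 5′ UTRs held 38 of the 60 mesophyll peaks, against 1 of the 4 root peaks and 0 meristem peaks, so these levels are not matched for peak position. The summed accessibility of the mesophyll peaks was 6514 and 6488 CPM in Oshmgb1, below the 7102 and 6740 CPM in WT, with 0 of the 60 called. Their median log2 fold change was -0.07. The strongest of them reached 1661 CPM per kb and lay 1 to 2 kb downstream of its gene. The largest mean in that class over all peaks was 3472 CPM, so 1 strong peak may carry much of the sum. The part of this lower sum in the results below was not tested. In whole leaf blades, fewer cells of a type and less open chromatin per cell cannot be told apart. The promoter peak of OsHMGB1 itself had 112 and 115 CPM in Oshmgb1 and 124 and 136 CPM in WT (not called), which does not check the genotype label.

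Accessibility at NAC genes differed little between Oshmgb1 and WT at most peaks. Just 1 NAC peak, in exon 2 of OMTN3, was more accessible in Oshmgb1, and 0 were less accessible. That is 1 of 135 peaks, beside 0.403% of all peaks called in either direction, 0.321% higher and 0.0824% lower, so the count for the family is near the background. The median log2 fold change of the NAC peaks was 0.03, against -0.01 over all peaks (-0.01 against -0.05 with the library totals that the deposited RPKM imply), and single values ran from -0.56 to 0.98. The 95% interval excluded a 2-fold difference at 127 of the 135 peaks (94.1%, beside 95.2% of all peaks). At an unadjusted edgeR p under 0.05 there were 17 NAC peaks (12.6%), 8 higher and 9 lower, beside 12.2% of all peaks. The genotypes did not overlap at 53 NAC peaks (39.3%), beside 43.2% of all peaks. Of these, 31 were higher and 22 lower in Oshmgb1, where 21.6% of all peaks fell on each side. Across all peaks edgeR called 148 higher and 38 lower, or 133 higher and 88 lower with those RPKM totals. DESeq2 called 0 NAC peaks, beside 0.104% of all peaks, and gave 6 an unadjusted p under 0.05, beside 3.78%. An FDR under 0.05 stood at 0 NAC peaks in the authors' deposited table, beside 0.102% of all peaks, and a p under 0.05 at 8, beside 4.79%.

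**Figure D1:**
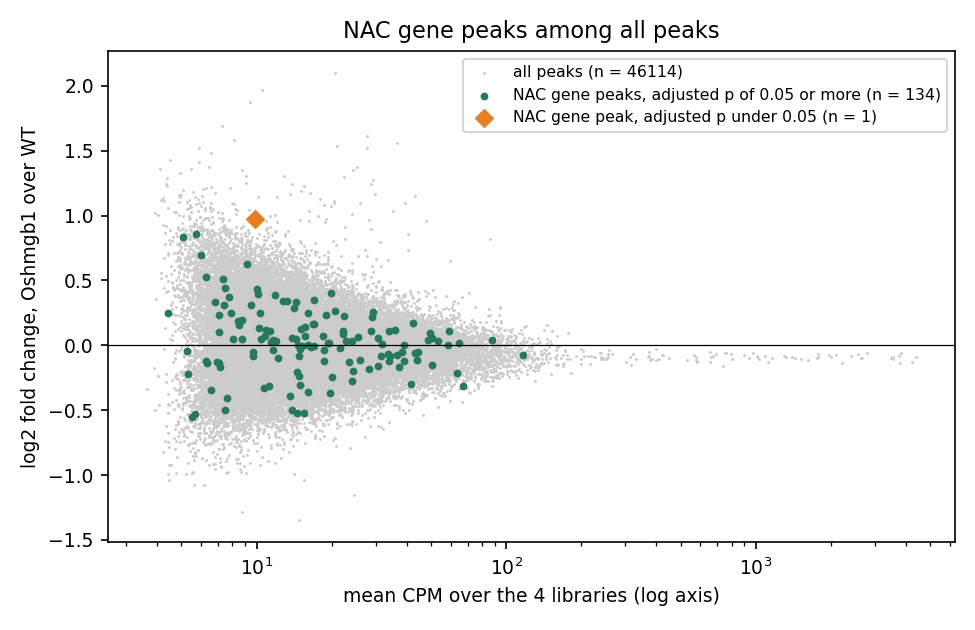
Log2 fold change (Oshmgb1 over WT) against the mean CPM over the 4 libraries, on a log axis, for all peaks (grey) and NAC peaks (green). The 1 called NAC peak (orange diamond, OMTN3, log2 fold change 0.98) lies at a mean below the all-peak median of 14.7 CPM, and the other NAC peaks lie within the cloud of all peaks.

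The called peak belongs to OMTN3 (LOC_Os12g41680, listed with the symbol NAC021), a miR164-targeted NAC gene known in rice as a negative regulator of drought resistance. It lies in exon 2 of 3, on chromosome 12 from 25804204 to 25804632 in the files' coordinates, 3474 bp from the gene start. The labels do not name the genome build. The peak had 13.8 and 12.4 CPM in Oshmgb1, against 6.73 and 6.60 CPM in WT. Both Oshmgb1 libraries were thus near the same level, well above a pair of WT libraries that also lay close together. This is a log2 fold change of 0.98 ± 0.23 (SE), at an edgeR adjusted p of 0.0207. Without WT replicate 2 the log2 fold change was 0.96. DESeq2 gave an adjusted p of 0.854, and the authors' deposited table lists a log2 fold change of 0.93 with an FDR of 0.694. Without Oshmgb1 replicate 1, Oshmgb1 replicate 2 or WT replicate 1 the edgeR adjusted p was 0.228, 0.0891 and 0.0553, with log2 fold changes of 0.90 to 1.05 over all 4 omissions.

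None of the other peaks of OMTN3 was called. The intron 1 peak, 85 bp away, had 9.07 and 14.1 CPM in Oshmgb1 and 11.8 and 10.8 CPM in WT, so the genotypes overlapped (log2 fold change 0.03 ± 0.22 SE). The 5′ UTR peak had 10.9 and 15.7 CPM in Oshmgb1 and 19.6 and 13.2 CPM in WT, again overlapping, with a log2 fold change of -0.31 ± 0.21. The exon 3 peak had 20.0 and 20.9 CPM in Oshmgb1 and 15.0 and 19.7 CPM in WT, with a log2 fold change of 0.23 ± 0.18. Here the Oshmgb1 libraries lay above the WT libraries, WT replicate 2 only just. No other peak within 20 kb was called. Over the reads of all 4 peaks of the gene the difference was not called either.

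OMTN3 is 1 of 6 rice NAC genes of the NAM and CUC branch that miR164 is known to target, and 4 of these had a listed peak. OsNAM (LOC_Os06g46270), a relative of the petunia gene for meristem and organ boundaries, had a promoter peak with 11.3 and 12.4 CPM in Oshmgb1 and 15.9 and 15.2 CPM in WT. Its peak downstream of the gene, 5998 bp from the start, had 11.8 and 10.5 CPM in Oshmgb1 and 6.73 and 7.70 CPM in WT. The genotypes did not overlap at either peak, but Oshmgb1 was the lower one at the promoter (log2 fold change -0.39 ± 0.20 SE, edgeR adjusted p 0.433) and the higher one downstream (0.63 ± 0.23, adjusted p 0.225). Neither was called.

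OMTN6 (LOC_Os08g10080), also a negative regulator of drought resistance in rice, had 13.7 and 13.1 CPM at its promoter peak in Oshmgb1 and 17.3 and 13.8 CPM in WT. Its intron peak had 14.6 and 13.9 CPM in Oshmgb1 and 11.9 and 10.6 CPM in WT, and its 3′ UTR peak had 33.7 and 30.0 CPM in Oshmgb1 and 31.1 and 22.4 CPM in WT. Oshmgb1 lay below WT at the promoter, above it in the intron, and overlapped it in the 3′ UTR. The log2 fold changes were -0.21, 0.34 and 0.26, and none was called. OsCUC1 (LOC_Os06g23650), a boundary gene of the same branch, had a single promoter peak that averaged 8.20 ± 2.42 CPM in Oshmgb1 and 7.85 ± 0.211 CPM in WT (SD, n = 2 each), with overlapping genotypes (0.05 ± 0.24). OMTN1, OsNAC2 (also known as OMTN2) and OsCUC3, a boundary gene that is not a known target of miR164, had no listed peak.

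**Figure D2:**
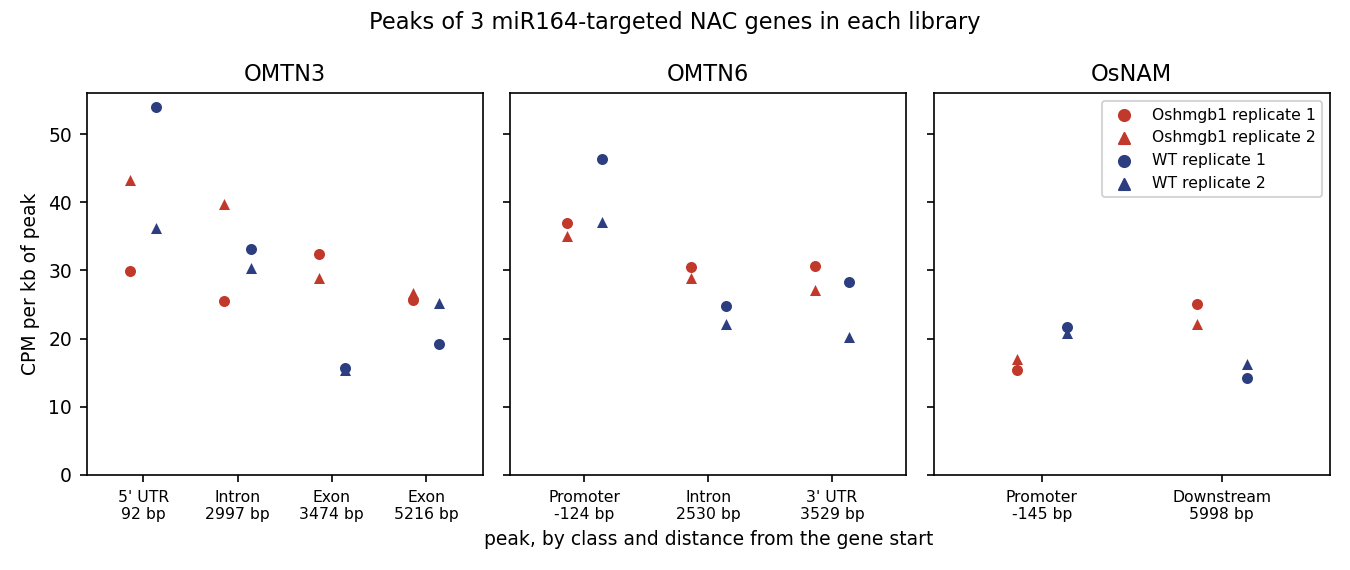
CPM per kb of each peak of OMTN3, OMTN6 and OsNAM in each library (Oshmgb1 red, WT blue; circles replicate 1, triangles replicate 2), ordered by distance from the gene start. At the promoter peaks of OMTN6 and OsNAM both Oshmgb1 points lie below both WT points, at the 5′ UTR peak of OMTN3 they overlap, and at the exon 2 peak of OMTN3, the intron peak of OMTN6 and the downstream peak of OsNAM both Oshmgb1 points lie above both WT points.

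The balance between the 5′ and later peaks of a gene was then compared within each library. This comparison was chosen after these values were seen. For genes with both kinds of peak, reads in exons, introns, the 3′ UTR and downstream were set against reads in the promoter and 5′ UTR of the same gene. The log2 ratio of OsNAM was 0.07 and -0.24 in Oshmgb1, against -1.24 and -0.98 in WT. The ratio of OMTN3 was 1.98 and 1.59 in Oshmgb1, against 0.77 and 1.49 in WT. The ratio of OMTN6 was 1.81 and 1.75 in Oshmgb1, against 1.32 and 1.26 in WT. In all 3 genes both Oshmgb1 ratios were the higher ones, by only a little over WT replicate 2 in OMTN3. In an edgeR fit over 8097 genes the difference in the log2 ratio was 1.02 ± 0.30 (SE, adjusted p 0.151) for OsNAM, 0.66 ± 0.24 (adjusted p 0.278) for OMTN3 and 0.49 ± 0.24 (adjusted p 0.456) for OMTN6. None was called, beside 0.198% of all genes. With single libraries left out the difference stayed between 0.86 and 1.17 for OsNAM and between 0.46 and 0.53 for OMTN6. For OMTN3 it ran from 0.29 without WT replicate 1 to 1.01 without WT replicate 2.

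Among all 29 NAC genes with both kinds of peak, 0 were called on this ratio and 7 had an unadjusted edgeR p under 0.05. Of the 7, 5 had a higher ratio in Oshmgb1 and 2 a lower one. They include the 3 genes above, whose values had prompted the comparison, so their share cannot be set against that of all genes. Without these 3 there were 4 of 26 (15.4%, beside 10.4% of all genes), 2 higher and 2 lower. The 2 with a higher ratio were LOC_Os05g34600, with log2 ratios of 1.12 and 0.82 in Oshmgb1 and 0.28 and 0.45 in WT, and LOC_Os05g10620, with -1.41 and -1.33 in Oshmgb1 and -2.28 and -1.77 in WT. The lower ones were the NTL9-like gene LOC_Os08g06140, with 0.38 and 0.13 in Oshmgb1 and 0.82 and 0.73 in WT, and LOC_Os07g48550, with -2.46 and -1.73 in Oshmgb1 and -1.63 and -1.05 in WT. The genotypes did not overlap in any of the 4, but these were picked by their p on the same ratio, so this adds no support. The median difference was 0.09 over the 26 NAC genes and 0.04 over all genes, and it was 0.20 with the 3 prompting genes included.

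NAC genes carried their accessible sites in somewhat different places from other genes. Promoters held 53 of the 135 NAC peaks (39.3%, against 35.1% of all peaks), 5′ UTRs 15 (11.1% against 6.97%), exons 13 (9.63% against 20.6%), introns 17 (12.6% against 18.0%), 3′ UTRs 15 (11.1% against 7.64%) and the downstream class 22 (16.3% against 11.7%). These shares are descriptions of the authors' annotation, without a test. The median level of NAC peaks was 25.5 CPM per kb, against 25.6 over all peaks, and that of their promoter peaks was 25.6, against 29.1 for all promoter peaks. Within the promoter class, 42 of the NAC peaks lay within 1000 bp of the gene start.

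At promoters and 5′ UTRs of NAC genes the median log2 fold changes were 0.01 and 0.04, against -0.02 and -0.05 for all peaks of these classes (-0.04 and -0.01, against -0.07 and -0.09, with the RPKM totals), and 0 were called. NAC exon peaks had a positive log2 fold change at 11 of 13 peaks (84.6%, against 53.7% of all exon peaks), with a median of 0.13 against 0.02. Their summed accessibility was 239 and 251 CPM in Oshmgb1 and 221 and 221 CPM in WT, so that both Oshmgb1 sums were higher. NAC 3′ UTR peaks leaned the other way, with a negative value at 11 of 15 and a median of -0.13 against -0.02. Their sums were 351 and 335 CPM in Oshmgb1 and 369 and 380 CPM in WT, both Oshmgb1 sums being lower. Much of this gap lay at the peaks of LOC_Os08g42400 (mean 59.8 CPM in Oshmgb1 against 74.4 in WT) and LOC_Os08g06140 (37.3 against 46.0). At an unadjusted edgeR p under 0.05 there were 4 of these 15 peaks, all lower in Oshmgb1 (26.7%, against 10.8% of all 3′ UTR peaks in either direction). Downstream peaks had a median of 0.09 against 0.01. Both Oshmgb1 libraries were above both WT libraries at 8 of 22 (36.4%, against 24.4% of all downstream peaks) and below at 2 (9.09%, against 21.1%). By an unadjusted edgeR p under 0.05, downstream peaks numbered 2 of 22 (9.09%, against 14.1%), below the share of their class. Exon peaks by that p numbered 2 of 13 (15.4%, against 13.5%), near the share of theirs. Intron peaks had a median of -0.01 against 0.02 (0.01 against 0.03 with library totals alone). The medians of the exon, 3′ UTR and downstream NAC peaks kept their sign under each scaling. The OMTN3 peak was the only one called in any class.

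**Figure D3:**
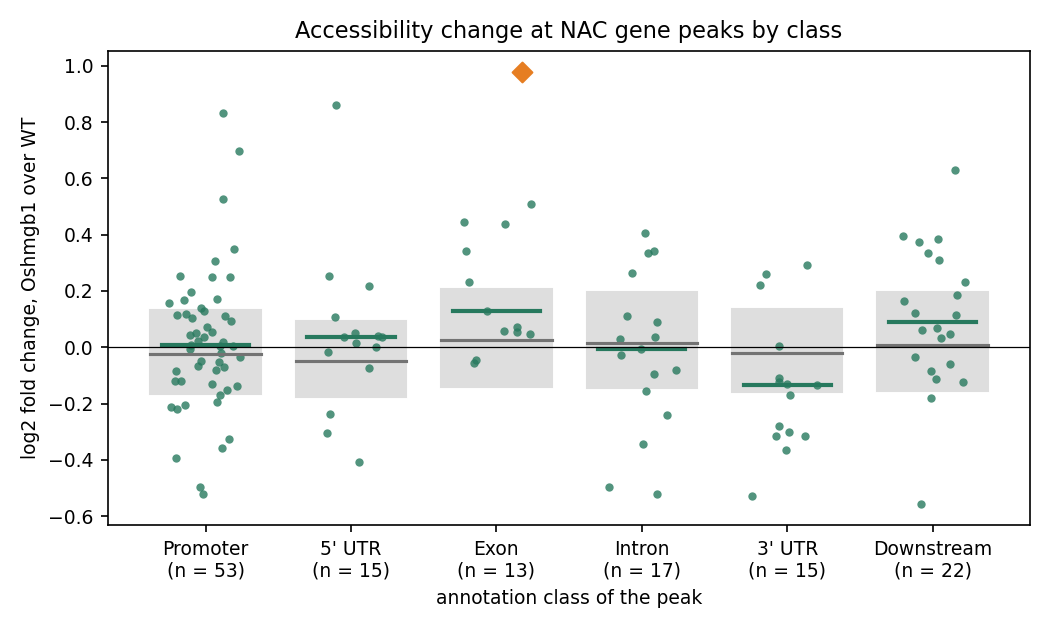
Log2 fold change (Oshmgb1 over WT) of each NAC peak (green points) by annotation class, with the NAC median as a green line, the called peak as an orange diamond, and the median and the middle 50% of all peaks of the class as a grey line and box. NAC exon peaks sit mostly above 0 (median 0.13) and NAC 3′ UTR peaks mostly below (median -0.13).

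Several NAC genes are known from rice genetics, and 34 were listed by role from background knowledge, with earlier results of these data known. Of these, 25 had NAC peaks, 48 in all, with 1 called (OMTN3) and 6 at an unadjusted edgeR p under 0.05, beside 0.403% and 12.2% of all peaks. Among 10 regulators of drought, salt and cold responses, 8 had 20 peaks, 0 called, with a median log2 fold change of 0.04. The most accessible peak of SNAC1 (LOC_Os03g60080), which closes stomata under drought in rice, was in its 5′ UTR (chromosome 3, 34165585 to 34166744). It had 53.0 and 55.0 CPM in Oshmgb1 and 60.0 and 45.6 CPM in WT. The WT libraries lay on both sides of the Oshmgb1 pair (log2 fold change 0.04 ± 0.12 SE).

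SNAC2, also called OsNAC6 (LOC_Os01g66120), is an activator of cold and salt tolerance and had the most peaks of any NAC gene, 5. Its promoter peak had 62.1 and 60.3 CPM in Oshmgb1 and 60.7 and 52.5 CPM in WT, overlapping (0.11 ± 0.11). Its 3′ UTR peak had 14.5 and 19.8 CPM in Oshmgb1 and 24.6 and 19.6 CPM in WT (-0.37 ± 0.18, edgeR adjusted p 0.405), also overlapping. OsNAC5 (LOC_Os11g08210), an activator of drought and salt tolerance, had one of the most accessible promoters of the family, at 80.2 CPM per kb. That promoter had 62.7 and 67.3 CPM in Oshmgb1 and 66.9 and 61.2 CPM in WT, which overlapped (0.02 ± 0.11).

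ONAC022 (LOC_Os03g04070), an activator of drought and salt tolerance, had the lowest unadjusted p of the stress genes. Its only peak, in an intron on chromosome 3 from 1862845 to 1863434, had 12.8 and 12.7 CPM in Oshmgb1 and 20.1 and 16.6 CPM in WT. Both Oshmgb1 libraries were lower, with a log2 fold change of -0.52 ± 0.20, but the peak was not called (edgeR adjusted p 0.236). SNAC3, ONAC045, ONAC095 and OsNAC3 had values of 0.12, 0.09, -0.20 and 0.06 at their most accessible peaks, with overlapping genotypes at each. ONAC045 (LOC_Os11g03370) and LOC_Os12g03050 lie on duplicated chromosome ends, so the assignment of reads between them is uncertain. OsNAC4 (LOC_Os01g60020), which promotes defence cell death in rice, had a promoter peak with 37.0 and 37.7 CPM in Oshmgb1 and 45.6 and 35.8 CPM in WT, an overlap.

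Of 4 senescence regulators, 3 had 5 peaks and 0 were called. OsNAP (LOC_Os03g21060), which promotes leaf senescence and chlorophyll breakdown, had 32.6 and 34.1 CPM at its promoter in Oshmgb1 and 38.4 and 32.1 CPM in WT, overlapping (-0.08 ± 0.14). ONAC106 (LOC_Os08g33670), which delays senescence, had 39.6 and 50.3 CPM in Oshmgb1 and 40.3 and 39.3 CPM in WT, where only Oshmgb1 replicate 2 stood apart (0.17 ± 0.13). ONAC054 (LOC_Os03g02800), which promotes senescence under abscisic acid, had a promoter peak on chromosome 3 from 1088252 to 1088611 with 6.87 and 8.05 CPM in Oshmgb1 and 4.49 and 4.64 CPM in WT. Both Oshmgb1 libraries were higher (0.70 ± 0.25, edgeR adjusted p 0.212, not called), at one of the least accessible peaks of the family (16.7 CPM per kb).

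The 3 switches of secondary wall formation each had 1 peak, and at all 3 the genotypes did not overlap, as at 43.2% of all peaks, and none was called. OsSWN1 (LOC_Os06g04090) had an intron peak with 22.3 and 22.9 CPM in Oshmgb1 and 18.9 and 18.7 CPM in WT (0.26 ± 0.17). OsSWN2 (LOC_Os08g02300) had a promoter peak with 15.2 and 12.8 CPM in Oshmgb1 and 19.8 and 16.4 CPM in WT (-0.36 ± 0.19). OsNAC31 (LOC_Os08g01330) had a promoter peak with 8.11 and 6.65 CPM in Oshmgb1 and 4.63 and 5.62 CPM in WT (0.53 ± 0.25, edgeR adjusted p 0.370). Oshmgb1 was thus the higher genotype at OsSWN1 and OsNAC31 and the lower at OsSWN2.

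The endosperm and grain-filling NAC genes had peaks in leaf blades at 3 of 6 genes (ONAC023, ONAC127 and ONAC129), 4 peaks in all, between 20.5 and 25.8 CPM per kb, with 0 called and log2 fold changes from -0.04 to 0.25. ONAC129 (LOC_Os11g31380), which acts in grain filling in rice, had the largest of these, with 9.36 and 7.70 CPM in Oshmgb1 and 7.44 and 6.97 CPM in WT at its promoter. The Oshmgb1 libraries were the higher pair, with a small gap. The membrane-anchored NAC factors OsNTL3, OsNTL5 and OsNTL6, which are released from membranes by stress, had 5 peaks with values from -0.24 to 0.13 and 0 called. OsNTL3 (LOC_Os01g15640), a regulator of heat tolerance in rice, had 45.6 and 49.6 CPM at its promoter in Oshmgb1 and 56.5 and 49.2 CPM in WT, an overlap (-0.15 ± 0.12).

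**Figure D4:**
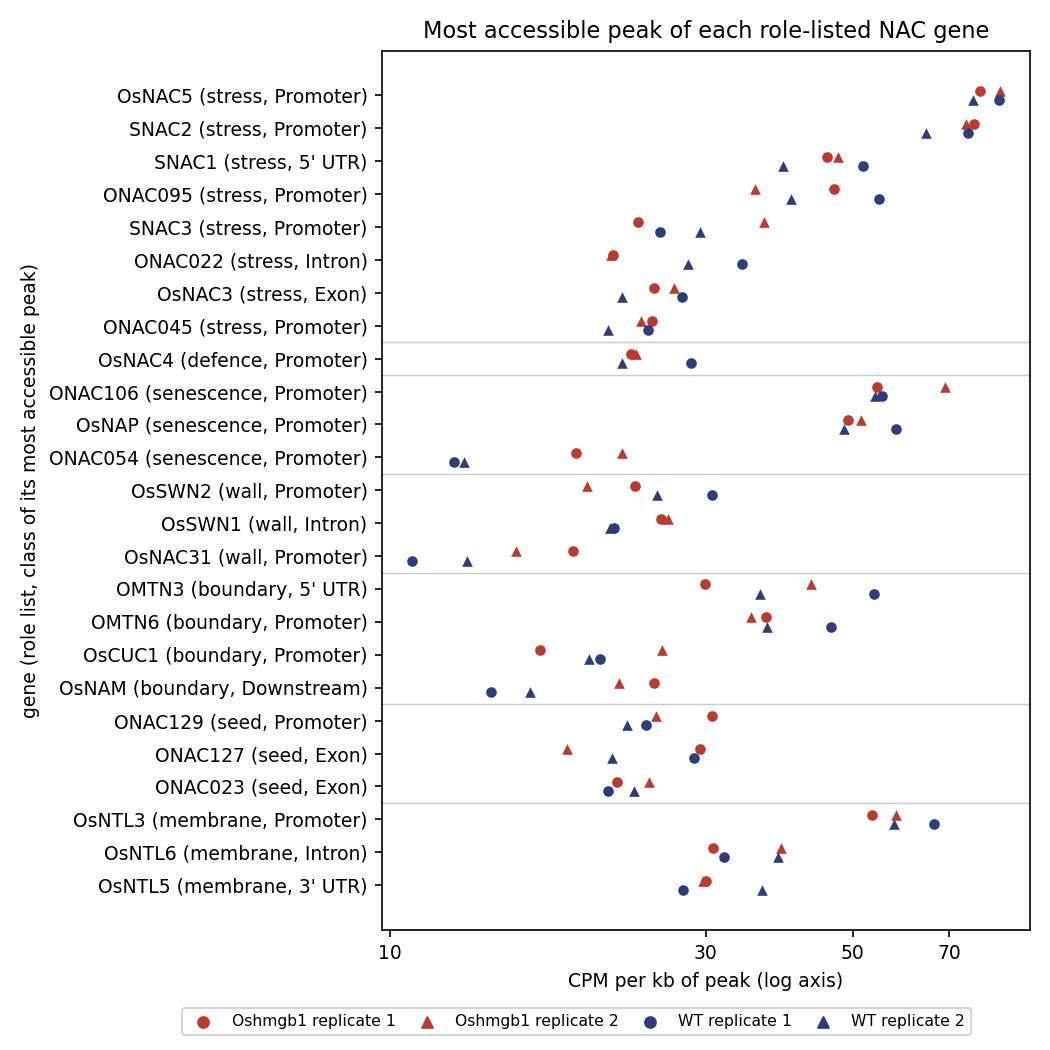
CPM per kb in each library at the most accessible peak of each role-listed NAC gene with a peak, on a log axis (Oshmgb1 red, WT blue; circles replicate 1, triangles replicate 2; lines divide the role lists). OsNAC5 and SNAC2 lie at the right with overlapping genotypes. At ONAC054, OsSWN1, OsNAC31, ONAC129 and the downstream peak of OsNAM both Oshmgb1 points lie to the right of both WT points. At ONAC022, OsSWN2 and OMTN6 both lie to the left.

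Beyond the role lists, NAC peaks of at least the all-peak median of 14.7 CPM whose genotypes did not overlap were ranked by fold change. The largest positive one was the intron peak of LOC_Os03g01870 (chromosome 3, 523846 to 524926), with 25.2 and 20.2 CPM in Oshmgb1 and 17.4 and 17.0 CPM in WT (0.41 ± 0.18 SE, edgeR adjusted p 0.324). The promoter peak of LOC_Os04g45340 followed, with 18.3 and 19.9 CPM in Oshmgb1 and 12.8 and 17.1 CPM in WT (0.35 ± 0.19). Then came OsSWN1, the exon 3 peak of OMTN3 and the 3′ UTR peak of LOC_Os01g48446 (0.22 ± 0.17). None of the 5 was called.

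On the negative side, ONAC022 and OsSWN2 came first, and the other 3 were all 3′ UTR peaks. LOC_Os08g42400 (listed as NAC018; chromosome 8, 26769482 to 26770615) had 62.1 and 57.4 CPM in Oshmgb1 and 73.7 and 75.2 CPM in WT. The gap between the genotypes was wider than the spread within either, for a log2 fold change of -0.31 ± 0.11 (edgeR adjusted p 0.184). The peak was picked for genotypes that do not overlap, so this gap adds no support. The 5′ UTR peak of the same gene had 24.2 and 24.5 CPM in Oshmgb1 and 22.7 and 24.7 CPM in WT, an overlap (0.04 ± 0.16). The 3′ UTR peak of LOC_Os08g06140 had 38.9 and 35.7 CPM in Oshmgb1 and 47.8 and 44.2 CPM in WT (-0.30 ± 0.13). That of LOC_Os10g21560, described as ATAF2, had 24.7 and 18.7 CPM in Oshmgb1 and 26.4 and 26.5 CPM in WT (-0.28 ± 0.16). None of the 5 was called.

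The most accessible NAC peak per kb lay in the promoter of LOC_Os12g23090 (chromosome 12, 13053156 to 13053434), at 133 CPM per kb, ahead of OsNAC5 and the 5′ UTR peak of LOC_Os08g42400 at 75.8. It had 34.8 and 34.9 CPM in Oshmgb1 and 41.2 and 37.3 CPM in WT (-0.17 ± 0.13), both Oshmgb1 libraries being a little lower. The lowest unadjusted p after OMTN3 fell on weak peaks, singled out after their values were seen. The 5′ UTR peak of LOC_Os01g01430 (listed as NAM-A1) had 6.49 and 8.16 CPM in Oshmgb1 and 5.19 and 2.93 CPM in WT (0.86 ± 0.26, edgeR adjusted p 0.116). The WT libraries of this peak differed from each other more than WT replicate 1 did from Oshmgb1 replicate 1, and without WT replicate 1 the peak was called (1.31, adjusted p 0.0272). A promoter peak of LOC_Os02g56600, described as CUP-SHAPED COTYLEDON 1, had 5.63 and 7.46 CPM in Oshmgb1 and 2.81 and 4.40 CPM in WT (0.83 ± 0.27, adjusted p 0.145).

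Summed over all peaks of a gene, 0 of the 75 NAC genes were called, beside 0.546% of all genes, and 7 (9.33%) had an unadjusted edgeR p under 0.05, beside 12.5% of all genes, with 2 in DESeq2. The lowest adjusted p, 0.203, was that of ONAC054 (0.70 ± 0.26 SE), whose sum is its single peak. The median log2 fold change was 0.02. The 95% interval excluded a 2-fold difference at 73 of the 75 genes, beside 26188 of all 27131 genes. The genes with the most reads, OsNAC5 and SNAC2, had sums of 176 and 191 CPM in Oshmgb1 and 190 and 176 CPM in WT for OsNAC5, and 158 and 150 CPM in Oshmgb1 and 166 and 145 CPM in WT for SNAC2. Both overlapped.

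Genes that NAC factors are known to regulate were examined alongside, 20 genes by identifier, also chosen with earlier results of these data known. Of these, 19 had 34 peaks, 0 called and 6 at an unadjusted edgeR p under 0.05, beside 0.403% and 12.2% of all peaks. Of the chlorophyll breakdown genes, downstream of OsNAP and ONAC054, 13 peaks had a median log2 fold change of -0.02. The lowest p among them was at the promoter of SGR (LOC_Os09g36200), the stay-green gene that dismantles chlorophyll complexes. It had 9.16 and 10.5 CPM in Oshmgb1 and 16.3 and 13.2 CPM in WT, both Oshmgb1 libraries being lower (-0.58 ± 0.21 SE, edgeR adjusted p 0.224). The intron peak of SGR overlapped between the genotypes, with -0.03 ± 0.22.

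The secondary wall genes, targets of the SWN switches, had 8 peaks with a median of 0.36, and 3 at an unadjusted edgeR p under 0.05 (beside 12.2% of all peaks), all higher in Oshmgb1. The vascular markers had 2 peaks, at 1 of 2 genes, that summed to 23.8 and 23.6 CPM in Oshmgb1 and 21.7 and 20.0 CPM in WT (median log2 fold change 0.18, 0 called). Their part in the values of the wall genes was not tested. MYB46 (LOC_Os12g33070), the MYB factor next in that cascade, had a promoter peak with 22.9 and 24.0 CPM in Oshmgb1 and 15.0 and 17.4 CPM in WT. Both Oshmgb1 libraries were higher (0.53 ± 0.18, adjusted p 0.170, not called). The other 2 were the promoter of MYB103 (0.58 ± 0.26) and a peak downstream of the cellulose synthase gene CESA7 (0.42 ± 0.19). The stress targets had 13 peaks with a median of -0.09. At an unadjusted edgeR p under 0.05 stood 2 of them, 1 higher and 1 lower in Oshmgb1. Without overlap of the genotypes there were 6 of the 13, 3 higher and 3 lower, beside 43.2% of all peaks. RAB16A (LOC_Os11g26790), a dehydrin gene induced by abscisic acid, had a 3′ UTR peak with 10.2 and 11.8 CPM in Oshmgb1 and 6.59 and 6.23 CPM in WT (0.77 ± 0.24, adjusted p 0.118). The lower one was a promoter peak of RAB16C (LOC_Os11g26760), another dehydrin gene, with 3.91 and 4.08 CPM in Oshmgb1 and 6.17 and 6.23 CPM in WT (-0.63 ± 0.25, adjusted p 0.272). A promoter peak of RAB16A leaned the other way, with 17.3 and 15.0 CPM in Oshmgb1 and 22.3 and 19.2 CPM in WT (-0.35 ± 0.18). The RAB16 genes are similar in sequence and stand side by side, so read assignment among them is uncertain.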

How the data were processed

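ATAC-seq was measured in 2 Oshmgb1 and 2 WT libraries. The submitters' processing notes name ChIPseeker 1.16.1, MACS2 2.1.2, Bowtie2 2.4.4, fastp 0.23.0 and bcl2fastq 2.19, without order or settings. The genome build, any Tn5 shift and any duplicate removal were not given in the sources used, and retained duplicates would inflate counts. The authors deposited whole-number read counts per merged peak, which were tested. The RPKM deposited by the authors gave alternative library totals. The authors also deposited a log2 fold change, the ratio of their mean RPKM, and their deposited p-value and FDR served as alternative calls, with a test that is not given.

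Counts were fitted in R 4.3.3 with edgeR 4.0.16 (TMM, default filter, which kept all 135 NAC peaks), Oshmgb1 over WT without covariates, with Benjamini-Hochberg adjustment over all peaks, over summed genes, or over within-gene ratios. SEs came from the F statistic. DESeq2 1.42.0 was an alternative, with other scalings, filters and single libraries left out. On simulated counts edgeR recovered 32% of 50 peaks changed 1.5-fold and 88% changed 2-fold. The chi-square over its degrees of freedom between libraries of a genotype was 2.25 in Oshmgb1 and 2.50 in WT, so none was a duplicate. Median reads per peak were 155 and 127 in Oshmgb1 and 105 and 121 in WT.

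Peaks named were those of role-listed genes (the most accessible per gene), called peaks, the 5 largest changes each way without overlap and at least median CPM, the 3 highest per kb, and the lowest p of each target list. The members and lists were chosen with earlier results of these data known. Gene names and roles by identifier are background knowledge, and some listed symbols are borrowed from other species. Whether peak starts count from 0 or 1 is not stated, and no sequence was used.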

Additional observations from a re-analysis of the deposited data

How the results depend on the processing

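The count of all peaks called was 186, and it was 45 with DESeq2, 61 among peaks of at least median CPM and 47 by the FDR in the authors' deposited table, while it ran from 75 to 530 with single libraries left out (lowest without Oshmgb1 replicate 2, highest without WT replicate 2). NAC peaks called numbered 1, and 0 with DESeq2, at least median CPM, the authors' FDR or promoter peaks alone (the OMTN3 peak is in an exon and below median CPM), and 0 to 1 with single libraries left out. The call without WT replicate 1 was at LOC_Os01g01430 and not at OMTN3. At an unadjusted p under 0.05 DESeq2 had 6 NAC peaks and the authors' table had 8 such peaks. NAC genes called on summed reads stayed at 0 in each alternative run (DESeq2, RPKM totals, block, single libraries left out), and on the within-gene ratio they ran from 0 to 1. The median log2 fold change of the NAC peaks was -0.0114 with the library totals behind the RPKM and -0.0099 to 0.0509 with single libraries left out.

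Of 445 pairs of a named peak and an alternative, 414 kept their direction and side of the threshold, 5 lost the call and 26 changed sign. The sign changes fell on 16 peaks, all uncalled, with main values of at most 0.31 in size. With the RPKM totals these were -0.0076 at SNAC1 (LOC_Os03g60080), -0.0227 at OsNAC5 (LOC_Os11g08210) and -0.0082 at the LOC_Os08g42400 5′ UTR, and in the authors' table -0.0106, -0.0237 and -0.0064. With single libraries left out, the ranges were -0.15 to 0.24 at SNAC1, -0.22 to 0.42 at SNAC3 (LOC_Os01g09550), -0.041 to 0.085 at OsNAC5, -0.0062 to 0.19 at ONAC045 (LOC_Os11g03370), -0.41 to 0.036 at ONAC095 (LOC_Os06g51070), -0.089 to 0.21 at OsNAC3 (LOC_Os07g12340), -0.29 to 0.061 at OsNAC4 (LOC_Os01g60020), -0.21 to 0.050 at OsNAP (LOC_Os03g21060) and -0.0064 to 0.34 at ONAC106 (LOC_Os08g33670). They were -0.27 to 0.34 at OsCUC1 (LOC_Os06g23650), -0.59 to 0.00072 at the OMTN3 5′ UTR (LOC_Os12g41680), -0.023 to 0.14 at ONAC023 (LOC_Os02g12310), -0.43 to 0.23 at ONAC127 (LOC_Os11g31340), -0.29 to 0.11 at OsNTL5 (LOC_Os08g44820), -0.20 to 0.15 at OsNTL6 (LOC_Os02g57650) and -0.022 to 0.0997 at the LOC_Os08g42400 5′ UTR. The causes were not tested.

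With the replicate number as a block, 179 peaks in all and 1 NAC peak were called, OMTN3 kept its call (adjusted p 0.0213), and no named call changed. The labels give same-numbered libraries only a number in common. Their deviations correlated at -0.037 over peaks, but 2 numbers cannot show whether these libraries were prepared together.

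At this depth a 1.5-fold change was recovered in 32% of simulated peaks, which limits what these counts can show of smaller differences. A lone library in an arm was assumed to vary like the others.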
